A study of Oryza sativa with 30 samples.

Results

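In shoot apices of the rice cultivar Taichung 65 (T65), 118 of the 55986 loci counted were nearly silent while the cultivar Nipponbare (NB) expressed them in every library. The 118 loci were chosen by measured values. A locus had to reach a level of at least 1 CPM (counts per 1000000 gene counts) in all 12 NB libraries. Its mean over the 11 T65 libraries had to be at most 1/8 of its mean over the NB libraries, and every T65 library had to lie below every NB library. The difference between the cultivars is therefore given as a description, without a test. Of the 18404 loci that reached CPM 1 in all NB libraries, the 118 loci were 0.641%. With the cultivars exchanged, the same rule found 40 of 18132 loci (0.221%) nearly silent in NB. The loci counted come from an annotation of the Nipponbare genome, so genes found only in T65 are not among them. The numbers of the 118 and the 40 loci are therefore no like measure.

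The plants of both cultivars were 6 weeks old and had grown under long days of 16 h light and 8 h dark. They were then moved to short days of 10 h light and 14 h dark, and apices were dissected after 0, 4, 8 and 12 short days. T65 had 3 libraries on each of days 0, 4 and 8 and 2 libraries on day 12, and NB had 3 libraries on each day. The labels give neither a transgene nor a mutant allele for either cultivar, and they leave unsaid whether the replicates are separate plants or harvests. P-values here therefore rest on how far these libraries differ, and part of that may be technical.

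Rice flowers earlier under short days. Leaves then signal to the shoot apical meristem, which stops making leaves and forms an inflorescence. Cultivars of rice also differ in gene content: a gene that is intact and transcribed in one cultivar can be missing, disrupted or silent in another. Such differences are known to gather in clusters of related genes, among them the clusters of disease resistance genes on chromosome 11. The locus identifiers belong to the MSU annotation, which was made on the Nipponbare genome. No annotation of these identifiers was used here, so the loci are given by number, without a name or a role. From counts alone, a locus that is missing, one that is not transcribed and one whose reads did not align cannot be told apart, and in whole apices neither can fewer cells of a type and less RNA per cell.

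The libraries held 8611425 to 24948806 gene counts. They fell into 2 sets by the share of reads that aligned to several places, which are not among the gene counts. In 7 libraries this share was 5.76 to 6.71% of the gene counts, and in the other 16 it was 9.59 to 10.9%. The set with the lower share held 5 T65 libraries, replicates 2 and 3 of day 0, replicate 1 of day 4 and replicates 1 and 2 of day 8, and 2 NB libraries, replicate 3 of day 8 and replicate 3 of day 12. Of the 4 shoot meristem genes checked, OSH1, OSH15 and OSH71 were present in every library of both cultivars (OSH1 at 110 to 202 CPM in T65 and 121 to 191 CPM in NB), and OSH43 was at 0 to 0.282 CPM in T65 and at 0 to 0.335 CPM in NB. Summed levels reached 35.5 to 119 CPM in T65 and 39.4 to 150 CPM in NB for 5 green leaf genes, 45.0 to 67.9 CPM in T65 and 43.5 to 56.6 CPM in NB for 3 secondary wall genes, and 44.6 to 155 CPM in T65 and 17.6 to 75.7 CPM in NB for 2 genes that respond to heat and wounding. Those ranges overlap between the cultivars over all days together. Day by day, the heat and wounding sum was higher in T65 without overlap at day 4 (92.3 to 100.1 CPM in T65 and 44.0 to 75.7 CPM in NB), at day 8 (44.6 to 57.9 CPM in T65 and 33.4 to 40.7 CPM in NB) and at day 12 (149.9 to 155 CPM in T65 and 17.6 to 32.6 CPM in NB), and its part in the levels of the nearly silent loci was not tested. The heat gene HSP101 averaged 67.2, 38.7 and 136 CPM in T65 and 42.8, 20.9 and 15.1 CPM in NB on those days. The wounding gene JAZ8 averaged 27.7, 11.8 and 16.7 CPM in T65 and 13.3, 16.6 and 8.57 CPM in NB, so it was lower in T65 at day 8. The 4 inflorescence genes summed to 24.7 to 119 CPM in T65 and 25.9 to 652 CPM in NB. Their sum was lower in T65 without overlap at day 4 (37.8 to 42.7 CPM in T65 and 65.2 to 107.9 CPM in NB). The same held at day 8 (62.3 to 68.8 and 154 to 219 CPM) and at day 12 (112 to 119 and 441 to 652 CPM). The part of this difference in the levels of the nearly silent loci was not tested. None of these 18 genes is among the 118 loci.

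The 118 loci together took up 35.0 to 68.4 CPM in a T65 library and 3064 to 3604 CPM in an NB library. The median locus had a mean of 0.0321 CPM in T65, with a range of 0 to 15.5 CPM over the loci, and of 11.02 CPM in NB, with a range of 1.85 to 277 CPM. The middle of the NB distribution ran between quartiles of 4.97 and 32.5 CPM. In counts, the median locus had 6 reads over all 11 T65 libraries and 2464 reads over all 12 NB libraries. Between 51 and 86 of the loci had no read in a given T65 library, and none lacked reads in any NB library.

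**Figure D1:**
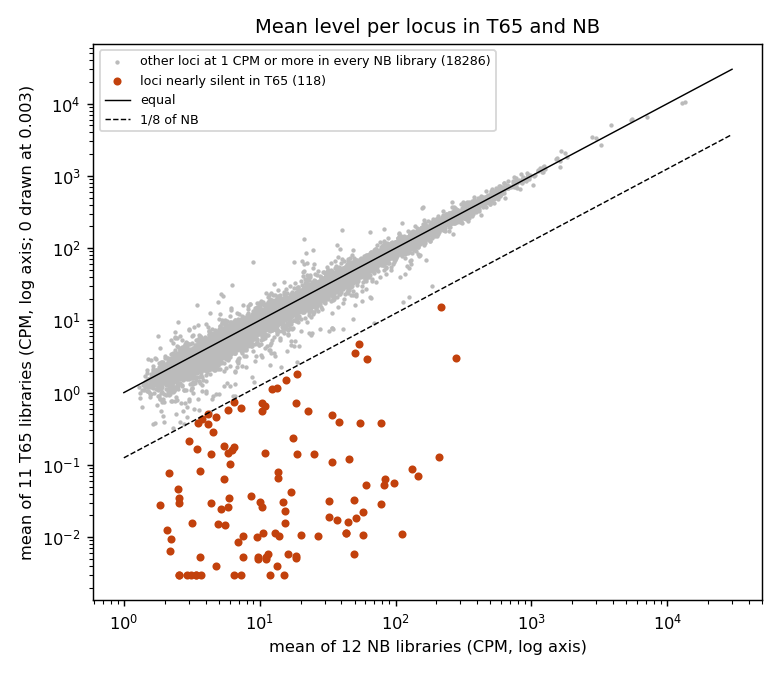
Mean level of each locus in CPM on log axes, with T65 on the vertical axis (11 libraries, 0 drawn at 0.003) and NB on the horizontal axis (12 libraries). The 118 nearly silent loci form a cloud far below the diagonal, at 0 to 15.5 CPM in T65 and 1.85 to 277 CPM in NB.

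How nearly silent the loci were varied among them. The T65 mean was 0.297% of the NB mean for the median locus, with quartiles of 0.0508 and 2.43%. It was 0 for 11 loci, up to 0.1% for 35, between 0.1 and 1% for 30, between 1 and 5% for 22, and between 5 and 12.5% for 20. Thus 76 loci had at most 1% of their NB level in T65, and 42 had more. The word silent fits the 76 loci better than the 42, since 17 of the 118 loci had a read in every T65 library.

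At the edge of the rule, the T65 level of LOC_Os10g14920 was 11.5%, that of LOC_Os12g38940 11.6% and that of LOC_Os04g13160 12.25% of the NB level, just inside. Just outside lay LOC_Os04g26240 at 12.6%, LOC_Os01g38580 at 13.1% and LOC_Os03g26229 at 13.5%. A further 38 loci met the other conditions at ratios between 12.5 and 25%, so the boundary cuts through a continuous range of ratios.

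Of the 11 loci without any read in T65, the 5 with the most reads in NB were LOC_Os11g33310, LOC_Os04g30030, LOC_Os02g29370, LOC_Os08g08130 and LOC_Os04g03450. LOC_Os11g33310 had 0 reads in each of 11 T65 libraries, and its lowest, median and highest NB libraries had 7.56, 12.6 and 29.4 CPM. Against a floor of 3 reads over the T65 group, which is 0.0159 CPM, it was at least 948-fold lower in T65. LOC_Os04g30030, also at 0 in T65, had 7.32, 10.3 and 23.4 CPM in its lowest, median and highest NB libraries and was at least 745-fold lower in T65. The bounds for LOC_Os02g29370, LOC_Os08g08130 and LOC_Os04g03450 were at least 459-fold, 409-fold and 234-fold lower in T65. The other 6 loci without a T65 read lay on chromosomes 11, 4 and 5. Such bounds cover counting error only, and for loci of low NB level they are set by depth.

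Among the loci with the highest NB levels, a few T65 reads remained. CPM is not divided by gene length, so levels are compared here between libraries and not between loci. LOC_Os11g09850 had 2 reads over the 11 T65 libraries, in 2 of the libraries, and 24047 reads over the 12 NB libraries, in which it ranged from 87.2 to 178 CPM with a median of 103 CPM. Its pooled T65 level was 0.00972% of the NB level, with an exact 95% interval of 0.00118 to 0.0351% that covers counting error only. LOC_Os01g35330 had 13 T65 reads and 35166 NB reads, LOC_Os07g20164 had 24 T65 reads and 46179 NB reads, and LOC_Os11g47370 had 17 T65 reads and 29571 NB reads. For LOC_Os07g26100 there were 11 T65 reads and 21647 NB reads, and for LOC_Os11g10090 there were 12 T65 reads and 18500 NB reads. In all 6 of these loci the highest T65 library was under 1 CPM, while the lowest NB library was between 32.2 and 118 CPM, so the cultivars lay far apart.

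Other highly expressed loci kept a measurable level in T65. LOC_Os07g18750 had 8.71, 14.7 and 28.5 CPM in its lowest, median and highest T65 libraries, against 99.3, 192 and 548 CPM in its lowest, median and highest NB libraries. Its T65 mean was 7.14% of the NB mean, and it alone gave 32.3% of the 9327 reads that all 118 loci had in T65. LOC_Os07g35979, the locus with the highest NB level, averaged 3.05 ± 2.83 CPM in T65 and 277 ± 67.1 CPM in NB (SD, n = 11 and 12). LOC_Os12g01010 averaged 4.65 ± 1.95 CPM in T65 and 53.9 ± 9.6 CPM in NB, LOC_Os04g53050 averaged 3.50 ± 0.932 CPM in T65 and 49.99 ± 21.4 CPM in NB, and LOC_Os01g05540 averaged 2.97 ± 1.03 CPM in T65 and 62.1 ± 3.87 CPM in NB. These 5 loci together held 61.1% of the T65 reads, so summed T65 levels describe few loci.

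**Figure D2:**
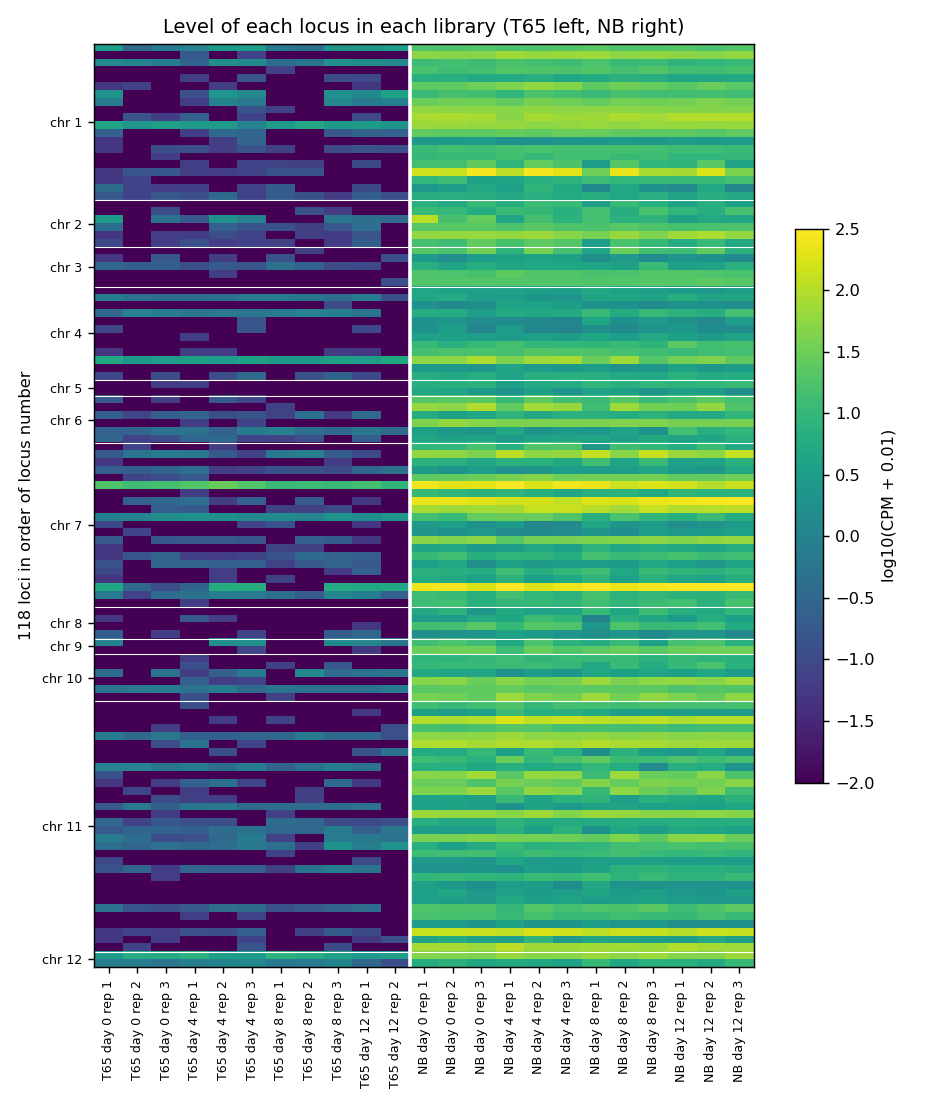
Level of each of the 118 loci (rows, in order of chromosome and locus number) in each library (columns, T65 left and NB right), as the colour of log10(CPM + 0.01). All NB columns are filled, while 51 to 86 loci per T65 library have no read, and a few rows keep a visible level in T65.

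The reads that remained in T65 differed between the 2 sets of T65 libraries, a split made after the data were seen. In a fit with the set as a term within each cultivar, 11 of the 118 loci (9.32%) passed edgeR's quasi-likelihood test between the sets of T65, of which 9 were lower and 2 higher in the set with the lower share, against 2.78% of all genes tested. In NB, 2 loci (1.69%) passed, against 1.4% of all genes tested. In T65, the CPM of the 2 sets did not overlap for 9 loci (7.63%), against 3.71% of all genes tested. The rule had chosen the 118 loci by these same T65 values, so the shares of all genes are no like measure. The T65 calls, and the p-values of single loci between the T65 sets, are therefore a description of these libraries.

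LOC_Os09g16995 had 0 reads in each of the 5 T65 libraries with the lower share and 5 to 28 reads in each of the 6 with the higher share, which is 0 and 11.1% of its NB level. LOC_Os01g05180 had 0 to 2 reads per library in the lower set and 19 to 49 in the higher set, at 0.173 and 15.8% of its NB level. LOC_Os07g35979 had 0 to 5 reads per library in the lower set and 42 to 114 in the higher set, at 0.0538 and 1.98% of its NB level. In CPM, the same order held without overlap for LOC_Os01g05289, LOC_Os01g06680, LOC_Os01g02320 and LOC_Os01g02400, so 5 of the 7 loci with this order lie on chromosome 1, between LOC_Os01g02320 and LOC_Os01g06680. The sets overlapped for the other nearly silent loci of that interval. Of these, LOC_Os01g05540 had 584 T65 reads, with means of 3.29 CPM in the lower set and 2.70 CPM in the higher set. LOC_Os01g02390, LOC_Os01g02420, LOC_Os01g02490, LOC_Os01g02500, LOC_Os01g05510 and LOC_Os01g05530 had 1 to 10 T65 reads each. The log2 difference, lower set minus higher set, was -5.94 ± 0.61 (SE) for LOC_Os01g05180 and -5.17 ± 0.52 for LOC_Os07g35979, with edgeR and Benjamini-Hochberg adjusted p of 3.69e-06 and 3.25e-06. For LOC_Os09g16995, whose lower set has no read, the adjusted p was 0.000292 in edgeR.

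The opposite order was seen for LOC_Os12g01010, with 88 to 130 reads per library in the lower set and 27 to 69 in the higher set, or 12.24 and 5.62% of its NB level. LOC_Os07g05840 had 8 to 15 reads per library in the lower set and 0 to 4 in the higher set. The difference of LOC_Os07g05840 between the T65 sets did not pass (edgeR, adjusted p = 0.519), and its NB sets also lay apart in that order, at 129.4 to 130.2 CPM in the lower set and 41.2 to 126 CPM in the higher set. In NB, whose lower set has 2 libraries, the sets overlapped for the other 8 of the 9 loci. LOC_Os01g05180, LOC_Os01g02320, LOC_Os01g02400 and LOC_Os04g13160 exceeded 1/8 of the NB level in the higher set of T65 libraries and met the rule through the mean over all 11. With the rule applied to the 16 libraries of the higher share alone, 122 loci met it, 114 of them among the 118. Both T65 libraries of day 12 belong to the higher set, so set and day are partly confounded, and the part of the set in the T65 levels by day was not tested.

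The levels in NB, which the rule required to reach CPM 1 and to lie above those in T65, had a wider spread from library to library than those of other loci; this is a description, since no test was made of it. The coefficient of variation over the 12 NB libraries had a median of 27.4% over the 118 loci (quartiles 17.0 and 40.9%), against 15.7% over the other 18286 loci at CPM 1 in all NB libraries (quartiles 11.2 and 22.3%). Between the quartiles of the NB level, where 58 of the loci and 8148 other loci lie, the medians were 27.7% for the nearly silent loci and 16.5% for the other loci. Counting alone would give a median of 6.98%. Most of the spread lay between replicates, since the coefficient of variation within days was 22.8% for the nearly silent loci and 12% for the other loci.

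The means of the 4 days in NB also lay further apart for the nearly silent loci than for the other loci. Each is a mean of 3 libraries, so spread between replicates enters these ratios, and its part was not tested. The highest day mean was 1.5 times the lowest for the median locus, against 1.31 times for the median other locus. It was under 1.5 times for 61 loci (51.7%), against 74.2% of the other loci, and under 2 times for 99 loci (83.9%), against 93.9%.

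The steadiest loci in NB were LOC_Os01g05540, LOC_Os01g05510, LOC_Os03g44870 and LOC_Os01g02320, with coefficients of variation of 6.24, 7.53, 7.63 and 8.56%. LOC_Os01g05540 had 67.8, 65.4 and 62.0 CPM at day 0, 64.3, 55.0 and 55.5 CPM at day 4, 63.9, 59.9 and 61.5 CPM at day 8, and 65.1, 60.8 and 63.7 CPM at day 12 in NB. Its 12 NB libraries thus lie within a narrow band with no day apart. The most variable were LOC_Os02g40260 at 158%, LOC_Os06g40020 at 78.4%, LOC_Os01g57599 at 60.4% and LOC_Os08g14850 at 60.4%.

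Some variable loci differed mainly between replicates of one day. LOC_Os01g35330 had 152, 133 and 271 CPM at day 0, 109, 276 and 205 CPM at day 4, 32.2, 211 and 81.5 CPM at day 8, and 76.7, 176 and 40.7 CPM at day 12 in NB. LOC_Os07g05840 had 59.8, 56.9 and 41.2 CPM at day 0, 112, 54.4 and 61.4 CPM at day 4, 126, 50.5 and 130 CPM at day 8, and 66.6, 54.8 and 129 CPM at day 12 in NB. In both, the replicates of day 8 differ by more than the day means do from each other, and no day lies apart from the others.

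Some NB libraries were often the highest or the lowest of the 12 for the nearly silent loci. Replicate 3 of NB day 0 was the lowest of the 12 NB libraries for 17 of the 118 loci (14.4%), against 2.04% of the other loci. Replicate 1 of NB day 8, merged from 3 runs, was the highest for 17 loci (14.4%, against 5.91% of the other loci) and the lowest for 16 (13.6%, against 7.74%). Replicate 1 of NB day 4 was the lowest for 15 loci (12.7%), against 28.3% of the other loci. No library was the highest or the lowest for more than 21 of the 118 loci.

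Against day 0, few of the 118 loci changed in NB over the short days. All 118 passed the filter on low counts, and the tests compared NB days with each other, which the rule did not do, although its minimum in every NB library leaves out loci that are off on some days. At day 4, 12 loci passed edgeR's quasi-likelihood test at a Benjamini-Hochberg adjusted p of 0.05 over 22839 genes, 8 higher and 4 lower (10.2%), against 20.3% of all genes tested, of which 10% were higher and 10.2% lower. At day 8, 1 locus passed, which was higher (0.847%), against 2.21% of all genes tested, of which 1.27% were higher and 0.946% lower. At day 12, 6 loci passed, 4 higher and 2 lower (5.08%), against 13.2% of all genes tested, of which 6.38% were higher and 6.86% lower. In the same edgeR test, 24 loci at day 4, 15 at day 8 and 21 at day 12 had an unadjusted p under 0.05. The shares of all genes under that limit are not given here.

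The shares were below those of the other loci at CPM 1 in all NB libraries, which were 23.7% at day 4, 2.44% at day 8 and 14% at day 12. The median log2 fold change of the nearly silent loci was 0.06 at day 4, 0.11 at day 8 and 0.04 at day 12, against -0.01 on each day for all genes tested. The libraries of the later day and of day 0 did not overlap for 30 of the 118 loci at day 4, 14 of 118 at day 8 and 40 of 118 at day 12. Among the 22839 genes tested, they did not overlap for 7192 (31.5%), 6010 (26.3%) and 9194 (40.3%). On each day the share of the 118 loci was the lower one. The larger spread between replicates of these loci, given above, goes with fewer calls; its part in the counts was not tested.

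The counts of changed loci rest on single libraries and on the filter. At day 4 they were 6 (5.08%) without replicate 1 of NB day 0, 5 (4.24%) without replicate 2 of NB day 0 and 7 (5.93%) without replicate 3 of NB day 4. The shares of all genes were then 13.7, 11.6 and 15.5%. At day 12 they were 10 (8.47%) without replicate 1 of NB day 4 or without replicate 2 of NB day 8, while the shares of all genes were 15.3 and 13.4%. Without the filter on low counts, 23 loci (19.5%) passed at day 4, 23 at day 8 and 28 (23.7%) at day 12, against 13.5, 4.61 and 9.83% of 36902 genes, so the order of the nearly silent loci and all genes turned round. At day 8 the order also turned round in the fit of NB alone (1.69%, against 0.879% of all genes). It did so too without replicate 2 of NB day 8 (2.54%, against 2.39%).

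Of the 6 loci that changed at day 12 in NB, 4 rose and 2 fell. LOC_Os06g40020 had 14.2, 7.00 and 9.45 CPM at day 12, against 3.57, 2.52 and 2.20 CPM at day 0. Its day 12 libraries lay above all others of NB, and its log2 fold change was 1.96 ± 0.37 (SE, edgeR, Benjamini-Hochberg adjusted p = 0.00129). LOC_Os11g46000 had 16.0, 14.4 and 15.2 CPM at day 12, against 6.80, 3.46 and 5.55 CPM at day 0, with a log2 fold change of 1.60 ± 0.37 (edgeR, adjusted p = 0.00600). Its day means lay in the order of the days, with 10.3, 7.50 and 8.53 CPM at day 4 and 9.65, 13.3 and 14.4 CPM at day 8. Both calls held when any 1 NB library was left out.

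LOC_Os11g46280, which lies on chromosome 11 near LOC_Os11g46000, had 6.72, 7.18 and 6.23 CPM at day 12, against 2.03, 2.07 and 2.44 CPM at day 0 (log2 fold change 1.70 ± 0.38, edgeR, adjusted p = 0.00504). It was also the locus called at day 8, with 3.86, 7.67 and 8.43 CPM (1.68 ± 0.38, edgeR, adjusted p = 0.0197). The call at day 8 was lost without any of the 3 libraries of day 0, without replicate 2 or 3 of NB day 8 and within the libraries of the higher share. LOC_Os04g30030, with no read in T65, had 23.4, 13.5 and 15.7 CPM at day 12, against 10.1, 7.32 and 10.4 CPM at day 0 (0.99 ± 0.24, edgeR, adjusted p = 0.0154). Its call was lost without replicate 2 of NB day 0 or replicate 1 of NB day 12, though the groups did not overlap.

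LOC_Os02g40260 fell to 3.68, 5.19 and 4.42 CPM at day 12, against 109, 15.2 and 26.9 CPM at day 0, with a log2 fold change of -3.42 ± 0.68 (edgeR, adjusted p = 0.00218). Replicate 1 of NB day 0 stands far above all other libraries. Without it the log2 fold change at day 12 was -2.16 and the call was lost, and at day 4 it was -1.14, with no call, against -2.38 ± 0.63 (edgeR, adjusted p = 0.0114) with it. The call at day 4 was also lost without replicate 1 of NB day 4, at -2.08. In T65 the same locus had 70, 0 and 9 reads at day 0, and 3, 33 and 14 reads at day 4. LOC_Os02g52730 fell to 5.88, 10.6 and 5.24 CPM at day 12, against 14.6, 12.8 and 25.9 CPM at day 0 (-1.22 ± 0.37, edgeR, adjusted p = 0.0322), and 4 of the single libraries, the higher share and the fit of NB alone each ended that call.

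**Figure D3:**
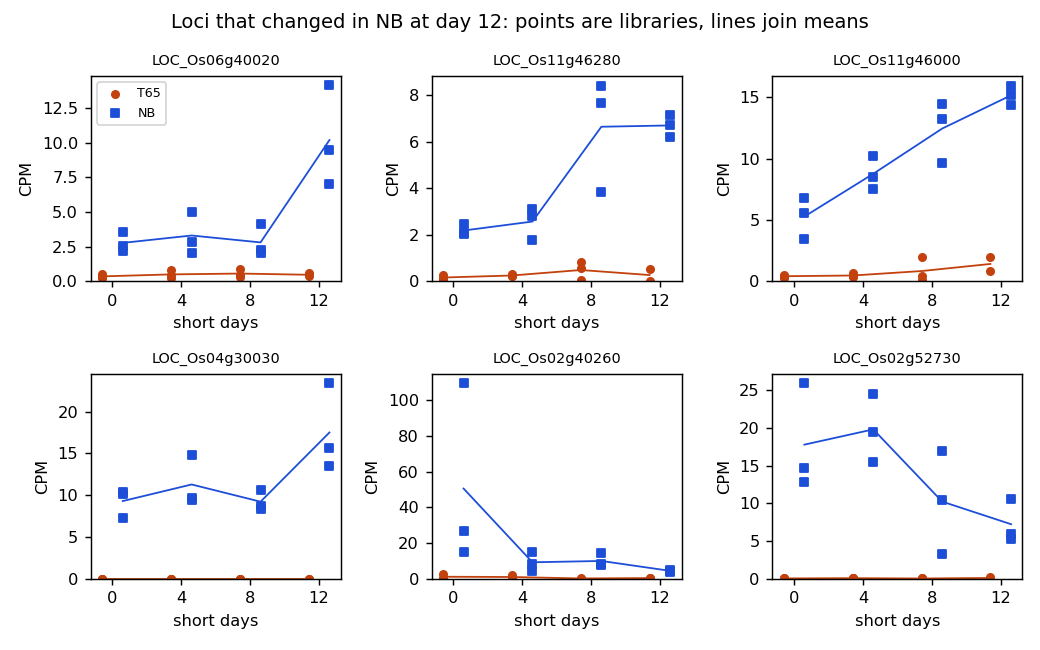
CPM of the 6 loci that changed in NB at day 12, by number of short days, with 1 point per library (T65 left of NB) and lines through the means, each panel on its own axis. LOC_Os06g40020, LOC_Os11g46280, LOC_Os11g46000 and LOC_Os04g30030 are higher at day 12, and the day 0 mean of LOC_Os02g40260 rests on 1 library at 109 CPM.

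At day 4 the largest rise was that of LOC_Os11g09830, with 12.35, 6.57 and 6.76 CPM at day 4, against 3.53, 3.099 and 3.54 CPM at day 0 (1.37 ± 0.29, edgeR, adjusted p = 0.00397). LOC_Os04g25740 had 3.87, 4.01 and 3.17 CPM at day 4, against 1.85, 1.44 and 1.63 CPM at day 0 (1.21 ± 0.30, edgeR, adjusted p = 0.0105). LOC_Os01g02500 had 42.9, 59.0 and 46.3 CPM at day 4, against 24.4, 25.0 and 32.3 CPM at day 0 (0.90 ± 0.15, edgeR, adjusted p = 0.000503). For these 3 loci every NB library of days 8 and 12 lay below every NB library of day 4, and neither later day passed the test against day 0. The call of LOC_Os04g25740 was lost without replicate 2 of NB day 0.

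LOC_Os11g45850 (1.01 ± 0.32) and LOC_Os07g26100 (0.66 ± 0.20) were also higher at day 4, with edgeR adjusted p of 0.0314 and 0.0231. The falls at day 4 other than that of LOC_Os02g40260 were small. LOC_Os07g20164 fell to 158, 165 and 118 CPM at day 4, against 225, 238 and 195 CPM at day 0 (-0.54 ± 0.17, edgeR, adjusted p = 0.0267). LOC_Os09g27744 changed by -0.63 ± 0.19 and LOC_Os07g32710 by -0.55 ± 0.18, with edgeR adjusted p of 0.0236 and 0.0295. Each of these 5 calls was lost when any of 3 to 5 single libraries was left out.

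Within T65, where most of the loci had few reads, no locus passed edgeR's F test over the 4 days, against 3.12% of all genes tested. An unadjusted p under 0.05 was found for 6 loci, and DESeq2 called 2 (1.69%), against 7.48% of all genes. Without the filter on low counts edgeR called 15 (12.7%), against 7.45% of all genes. The difference between the cultivars in the change from day 0 passed for none of the 118 loci at days 4, 8 and 12 (edgeR, with 4, 1 and 7 loci at an unadjusted p under 0.05), against 1.83, 0.00876 and 6.81% of all genes tested. DESeq2 was not run for that difference, and the shares of all genes at an unadjusted p under 0.05 are not given here. The NB levels that the rule required were enough for all 118 loci to pass the filter, whatever their T65 reads. The median locus had 6 reads over all T65 libraries, and 45 loci had at most 3. For most of the loci a change in T65 could therefore hardly be called. The lack of calls says little about them, and the shares of all genes are no like measure.

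The 118 loci were spread unevenly over the chromosomes. Chromosome 11 held 32 of them, which is 3.32% of its 963 loci at CPM 1 in all NB libraries, and chromosome 7 held 21, which is 1.49% of 1410. Chromosome 1 held 20 (0.766% of 2610) and chromosome 4 held 12 (0.760% of 1578). The other 8 chromosomes held 2 to 6 loci each, at 0.132 to 0.676% of the loci that could have met the rule. Of the 40 loci nearly silent in NB, 9 lay on chromosome 11.

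**Figure D4:**
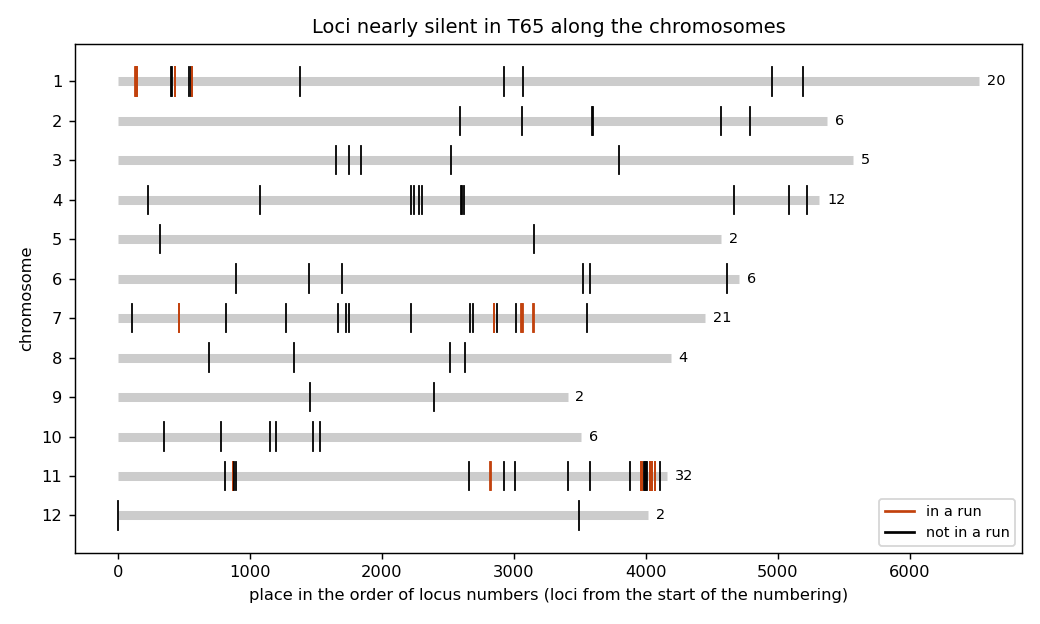
Place of each of the 118 loci in the order of locus numbers on the 12 chromosomes (grey bars, with the number of loci at the right). Marks for loci in a run and for others overlap where loci are close, and the densest group lies near the end of the numbering of chromosome 11, which holds 32 loci.

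The loci also lay next to each other. Loci were put in the order of their numbers, and a run was defined as 2 or more nearly silent loci with at most 5 other loci between neighbours. There were 14 runs, 7 of 2 loci, 4 of 3 and 3 of 4, which took in 38 of the 118 loci (32.2%). Of the other loci at CPM 1 in all NB libraries, 1.51% had a nearly silent locus within the same distance. With no other locus between, 19 loci (16.1%) had a nearly silent neighbour, against 0.252% of the other loci. By this definition 80 loci lay outside runs, which made single positions the more common case. That rests on the definition. Runs took in 51 loci with at most 10 other loci between. They took in 59 of the 118 when only loci at CPM 1 in all NB libraries were counted.

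The 3 runs of 4 loci lie on chromosomes 1 and 11. The first holds LOC_Os01g02320, LOC_Os01g02390, LOC_Os01g02400 and LOC_Os01g02420, at 9.58, 0.0382, 9.10 and 0.0364% of the NB level in T65. Within 1 run, then, a pair of loci was near 10% and a pair was near 0. The second holds LOC_Os11g45809, LOC_Os11g45820, LOC_Os11g45850 and LOC_Os11g45890, at 0.0189, 2.55, 8.73 and 1.03%. The third holds LOC_Os11g46960, LOC_Os11g46970, LOC_Os11g46980 and LOC_Os11g47039, with 1 read in LOC_Os11g46960 and none in the other 3 over all T65 libraries. A run of 3 on chromosome 1 holds LOC_Os01g05510, LOC_Os01g05530 and LOC_Os01g05540, at 0.0361, 0.0644 and 4.78%, and the 2 steadiest loci in NB are among them.

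Some runs held loci that T65 expressed between the nearly silent ones. Inside the 14 runs lay 29 other loci, of which 8 had no read in NB and 6 reached CPM 1 in all NB libraries. Of the 11 that were tested, 8 were lower in T65 and 2 higher, by edgeR's test between the cultivars, in which 14.9% of all genes tested were lower and 14.9% higher in T65. LOC_Os01g02334, inside the first run, had 38.6 ± 4.37 CPM in T65 and 30.6 ± 4.59 CPM in NB (SD, n = 11 and 12). LOC_Os01g02360, in the same run, had 3.22 ± 1.36 CPM in T65 and 9.39 ± 2.46 CPM in NB. LOC_Os11g47130, in a run of 3 on chromosome 11, had 7.50 ± 2.95 CPM in T65 and 27.8 ± 6.40 CPM in NB. Other loci inside runs had no T65 read and fell under CPM 1 in some NB library. LOC_Os11g47170, LOC_Os07g32700 and LOC_Os11g47390 had 0 T65 reads and 243, 197 and 100 NB reads. All these named loci were chosen after their values were seen.

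Loci beside the nearly silent ones were grouped by their distance from the nearest of them, as a description. Among loci at CPM 1 in all NB libraries, edgeR called 21.7% of 46 direct neighbours lower in T65, 30.2% of 53 at place 2, 26.9% of 130 at places 3 to 5, 15.3% of 215 at places 6 to 10, 16.0% of 1661 at places 11 to 50 and 13.3% of 16181 more than 50 places away. The shares called higher in T65 in the same classes were 21.7, 17.0, 16.2, 15.8, 18.0 and 16.3%. A T65 level of at most 50% of the NB level was found in 10.9% of direct neighbours and in 0.896% of the loci more than 50 places away. The median neighbour, at 101% of the NB level, was as high in T65 as in NB.

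The densest stretch of 100 successive loci lay on chromosome 11, from LOC_Os11g45620 to LOC_Os11g47180. It held 15 of the 118 loci, and 23 of its 100 loci reached CPM 1 in all NB libraries, so 65.2% of those were nearly silent in T65. The next stretches of 100 loci held 6 of the 118 loci among 46 at CPM 1, from LOC_Os01g01460 to LOC_Os01g02500, 6 among 33, from LOC_Os11g09040 to LOC_Os11g10090, 5 among 45, from LOC_Os01g04500 to LOC_Os01g05540, and 5 among 23, from LOC_Os07g34900 to LOC_Os07g35985. In the densest stretch, 4 loci had no read in T65, LOC_Os11g46970, LOC_Os11g46980, LOC_Os11g47039 and LOC_Os11g47180. LOC_Os11g45809 had 2 T65 reads and 12826 NB reads, and LOC_Os11g47160 had 2 T65 reads and 2927 NB reads.

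Expressed loci of T65 lay between them. The other 8 loci of the stretch at CPM 1 in all NB libraries were LOC_Os11g45710 at 103% of the NB level in T65, LOC_Os11g46240 at 82.5%, LOC_Os11g46250 at 77.2%, LOC_Os11g45790 at 73.6%, LOC_Os11g46300 at 45.0%, LOC_Os11g47130 at 27.0%, LOC_Os11g45840 at 15.4% and LOC_Os11g45750 at 14.0%. So 4 of the 8 were at most 50% of the NB level, and 2 of those lay just above the limit of the rule. Of the 77 loci of the stretch under CPM 1 in some NB library, 44 had no read in any library of either cultivar. LOC_Os11g45620, the first locus of the stretch, showed the opposite difference, at 2.91 ± 0.74 CPM in T65 and 0.0893 ± 0.0909 CPM in NB (SD, n = 11 and 12), and was named after its values were seen.

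**Figure D5:**
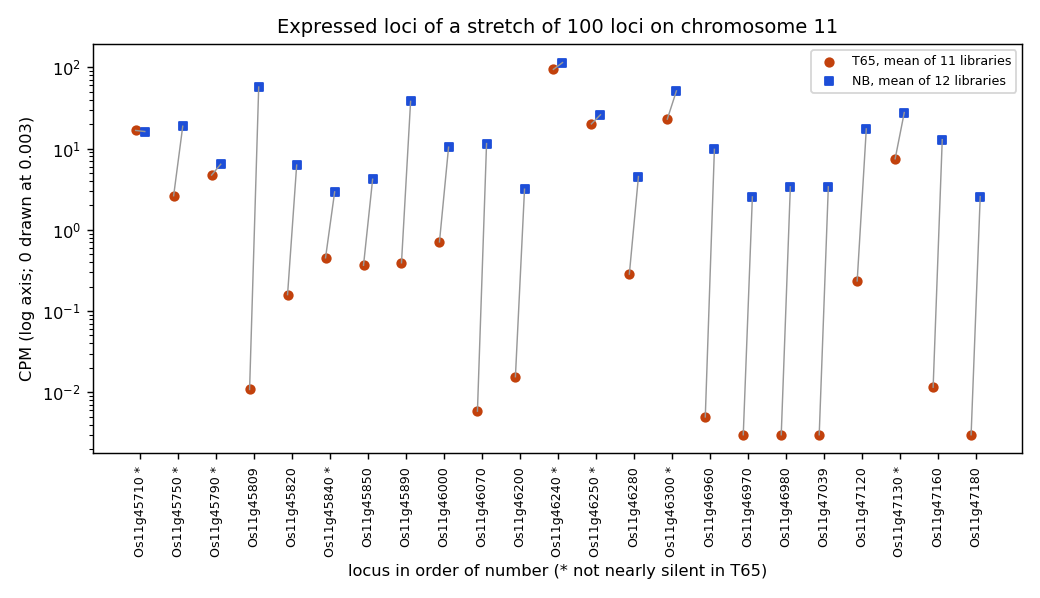
Mean CPM on a log axis of the 23 loci at CPM 1 in all NB libraries within the densest stretch of 100 loci on chromosome 11, with T65 (circles, 11 libraries, 0 drawn at 0.003) left of NB (squares, 12 libraries). Loci with an asterisk did not meet the rule. LOC_Os11g45710, at the left, stands at 103% of NB, and the 4 loci at 0 in T65 stand toward the right.

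Of the 40 loci nearly silent in NB, 4 (10.0%) had a locus nearly silent in T65 within the distance used for runs, and 14 (35.0%) lay in runs with each other. Locus numbers of this annotation mostly end in 0, and other endings mark loci added between existing ones. Among the 118 loci, 19 (16.1%) had a number that does not end in 0, against 7.69% of the other loci at CPM 1 in all NB libraries.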

How the data were processed

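The authors deposited 1 table per library with whole-number read counts per locus, per the labels' protocols from total RNA of dissected rice shoot apices. The 30 samples gave 23 libraries, 5 of them merged from several runs. The submitters' processing notes name HTSeq, TopHat2, Bowtie2, edgeR 3.6.4 and R 3.1.0. Not given in the sources used here: genome build, annotation and strand setting. Loci that overlap or are antisense to each other can therefore share reads, and near-identical copies are uncertain because multiply aligned reads are not in the deposited counts. Left out were 5 lines per file that name no gene, among them ambiguous reads (2.01 to 2.44% of the gene counts) and reads outside genes (4.72 to 5.51%). No row of the RefSeq gene table at hand holds an MSU locus, so 0 loci matched. The symbols of the 18 checked tissue genes were paired with locus numbers from rice nomenclature as recalled, not from a file, so the tissue check rests on that pairing.

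CPM was computed from the deposited counts as the count divided by the sum of gene counts, times 1000000. NB and T65 days were compared with edgeR 4.0.16 (quasi-likelihood test, R 4.3.3) from these counts, using TMM and filterByExpr, with all 8 groups in 1 model (15 residual degrees of freedom, 22839 genes, common biological coefficient of variation 12.7%) and Benjamini-Hochberg adjustment at 0.05. The script was tested on simulated data. DESeq2 1.42.0 was an alternative. Libraries of a group were not duplicates (chi-square per gene 5.61 to 48.4). The loci, lists and tests were chosen with earlier results of these data known. Loci were named by rule: the 8 highest in NB, the 4 longest runs, the largest day changes without overlap (up to 5 each way per day), the 4 steadiest and 4 most variable, 3 on each side of the limit, the 5 highest in T65, and the 5 at 0 in T65 with most NB counts. Other named loci were chosen after their values were seen, as was the split of the libraries by their share of multiply aligned reads.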

Additional observations from a re-analysis of the deposited data

How the results depend on the processing

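Counts of changed loci depended on the filter, on the tool and on single libraries. The named day changes in NB were checked under other edgeR settings and with single NB libraries left out. No direction reversed, and 231 of these alternatives kept the call while 41 lost it. DESeq2 and single T65 libraries left out were not among these alternatives. Without the filter on low counts, 23 loci changed at NB day 4, 23 at day 8, 28 at day 12 and 15 over the days in T65, against 12, 1, 6 and 0 with it (13.5, 4.61, 9.83 and 7.45% of all genes, against 20.3, 2.21, 13.2 and 3.12%). DESeq2 gave 2 at day 8, 10 at day 12 and 2 in T65 (4.06, 15.4 and 7.48% of all genes). The fit of NB alone gave 2 at day 8 (1.69%, against 0.879% of all genes). That of T65 alone gave 1 in T65 (0.847%, against 4.71%), and the libraries of the higher share gave 0 at day 8 (against 0.41%). Leaving out 1 library gave 5 to 18 at day 4, 0 to 3 at day 8, 4 to 10 at day 12 and 0 in T65. The shares of all genes were then 10.2 to 30.7, 0.73 to 4.31, 5.91 to 16.6 and 0.784 to 4.99%. At day 8 the count was 0 without replicate 1 or 3 of NB day 0 or replicate 3 of NB day 8, against 0.783, 1.06 and 0.73% of all genes. It was 3 (2.54%) without replicate 1 or 2 of NB day 4 or replicate 2 of NB day 8, against 3.43, 4.31 and 2.39%. Deviations of same-numbered libraries correlated above 0.1 in 1 of 15 pairs in T65 and 10 of 18 in NB. Of the days compared with day 0, none had all its pairs above 0.1, so the numbers were not taken to pair the groups tested, although all pairs of NB day 4 with NB day 8 and with NB day 12 were (0.114 to 0.392). With the replicate block the counts were 13, 2, 7 and 0 (11, 1.69, 5.93 and 0%, against 22.8, 2.95, 14.5 and 3.12% of all genes). The rule itself gave 156 loci at a ratio of 1/4, 100 at 1/16, 153 at a minimum CPM of 0.5, 97 at 2, and 118 with TMM-scaled CPM. Runs took in 19 loci with no other locus between and 59 when only loci at CPM 1 in all NB libraries were counted, against 38. The median coefficient of variation in NB was 25.3 to 28.1% without 1 library. Depth limits the T65 values: 45 loci had at most 3 T65 reads.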
